A study of Mus musculus with 6 samples.

Results

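The genes described here are 10 Polycomb and histone H3 lysine 27 (H3K27) demethylase genes, followed in bulk RNA-seq of the mouse prostate. They were taken by symbol, with no threshold on a measured value, as the rows EZH1, EZH2, SUZ12, EED, JARID2, BMI1, RNF2, CBX7, KDM6A and KDM6B of a table of 24908 genes, which spells mouse symbols in capitals. All 10 were found. The table holds 6 libraries, namely the anterior (AP), dorsolateral (DLP) and ventral (VP) lobes of 1 wild-type (WT) male and of 1 heterozygous Hi-MYC male (MYC), FVB littermates aged 12 weeks on the same purified diet. Hi-MYC animals carry human c-MYC under the ARR2Pb promoter, a probasin-derived promoter meant for prostate epithelium, for which the study raises possible leaky expression in some other cells. Each lobe was dissociated to a cell suspension before RNA was taken. With 1 library per lobe and genotype, genotype and mouse cannot be told apart, and no p-value is given.

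Polycomb proteins keep genes silent through histone marks. Polycomb repressive complex 2 (PRC2) methylates H3K27 through EZH2 or its paralogue EZH1, which need the scaffolds SUZ12 and EED, and JARID2 is an accessory subunit that helps the complex find chromatin. Polycomb repressive complex 1 (PRC1) ubiquitinates histone H2A through RNF2 (RING1B) with a partner such as BMI1, and CBX7 is a reader of methylated H3K27 within canonical PRC1. KDM6A (UTX) and KDM6B (JMJD3) remove the methyl groups. EZH2 is known from advanced prostate cancer, where it is often high, and in many tissues it is made by dividing cells while EZH1 is found in resting ones.

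Values are FPKM, fragments scaled to transcript length and to the depth of the library, as deposited. A log2 ratio here is log2 of (FPKM + 1) of MYC over (FPKM + 1) of WT, and 12361 genes with a mean of 1 FPKM or more served as the background, all 10 genes among them. Steps in the values of low genes placed the depth between 25.5 M reads (WT AP) and 50.2 M reads (MYC AP). From that depth and the transcript lengths, a gene of the 10 rested on an estimated 177 to 11822 reads per library. Intervals given beside a ratio of FPKM are exact 95% binomial (Clopper-Pearson) intervals from those reads, and they cover counting error only. Prostate markers were present in every library, with KRT8 between 388 and 1292 FPKM, but PBSN was at 1.90 FPKM in MYC VP and TGM4 at 0.400 and 0.446 FPKM in WT and MYC VP. Seminal vesicle genes summed to 513 FPKM over 5 genes in MYC AP, to 8.99 FPKM in MYC DLP and to at most 0.105 FPKM in the WT libraries.

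The main difference lay in the methyltransferase pair. EZH2 was about 2.2 times as high in MYC as in WT VP and 1.7 times as high in DLP, while EZH1 was at 0.829 and 0.901 of its WT level, so that EZH1 was the higher of the pair in WT DLP and WT VP and EZH2 was the higher in MYC DLP and MYC VP. In AP, EZH2 was 1.06 times and EZH1 1.19 times as high in MYC as in WT. The other PRC2 members, SUZ12, EED and JARID2, were 1.41, 1.21 and 1.76 times as high in MYC as in WT VP. The EED difference did not keep its direction under every scaling of the libraries, and 34.7% of all genes compared had a VP log2 ratio as high. CBX7 was lower in MYC DLP and MYC VP, and KDM6B was lower in MYC AP.

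On the log2(FPKM + 1) scale, 1 of the 10 genes (EZH2) was at least 2-fold higher in MYC VP, against 6.88% of all genes compared, and none was at least 2-fold lower, against 5.95%. None passed 2-fold in DLP, where 6.46% of all genes were higher and 3.39% lower, or in AP, where the shares were 2.05% and 0.599%. At 1.5-fold, EZH2 and JARID2 were higher in VP (16.7% of all genes), EZH2 in DLP (13.4%) and none in AP (7.53%). None was 1.5-fold lower in VP (14.9%) or DLP (9.44%), and KDM6B was in AP (3.13%). These counts are near what the background alone gives for 10 genes. The median log2 ratio of the 10 genes was 0.22 in VP, 0.15 in DLP and 0.10 in AP, beside medians over all genes of 0.04, 0.03 and 0.13.

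**Figure D1:**
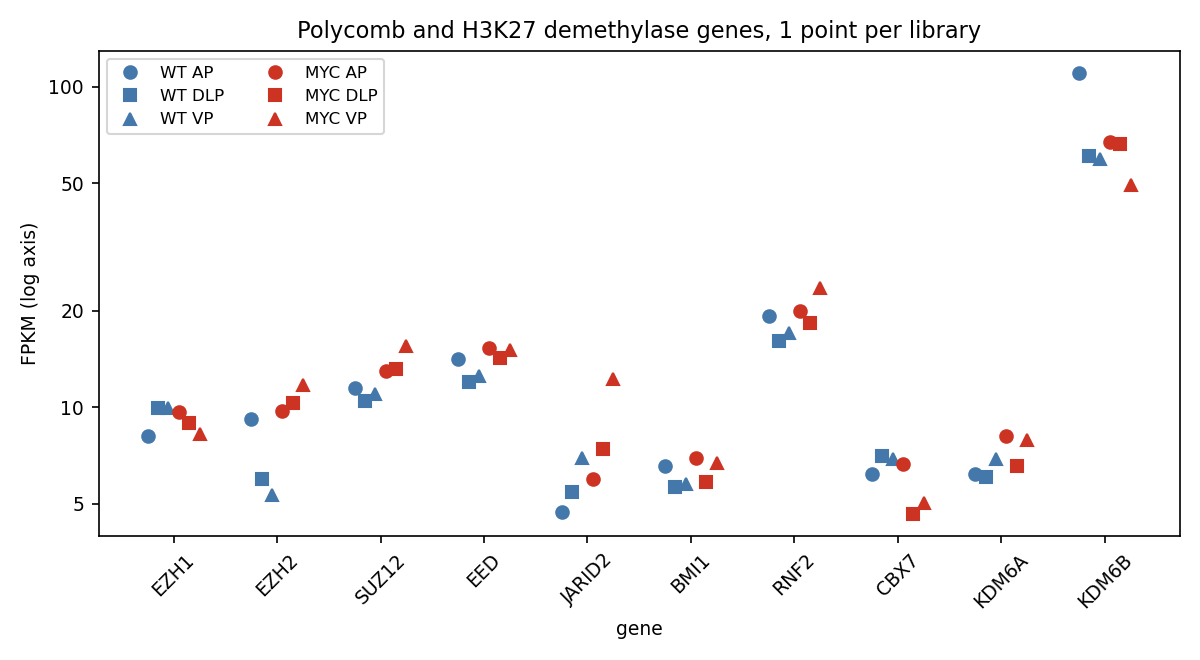
Level of each of the 10 genes in FPKM (log axis), 1 point per library, with colour for genotype and shape for lobe. KDM6B stands above the others in every library, and EZH2 is lowest in WT DLP and WT VP.

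EZH2 (chromosome 6, 47530274 to 47595270 in GRCm38) is the catalytic subunit of PRC2 in dividing cells. WT AP had 9.18 FPKM, WT DLP 5.96 and WT VP 5.31, whereas MYC AP had 9.75 FPKM, MYC DLP 10.3 and MYC VP 11.7. The WT DLP and WT VP libraries were low and the other 4 lay close together. The ratio of MYC to WT was 2.20 (1.94 to 2.52) in VP, 1.72 (1.51 to 1.98) in DLP and 1.06 (0.928 to 1.22) in AP. The log2 ratio in VP was 1.01, just past the 2-fold threshold, and ranged from 0.77 to 1.12 under 5 other scalings of the libraries, 4 of which placed it below the threshold. The AP value turned to -0.060 and -0.049 with medians of ratios and trimmed means. In VP, 6.71% of all genes compared had a log2 ratio as high, and in DLP 10.8%. Its annotated span overlaps the locus F830010H11Rik.

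The stretch before the EZH2 start is shown because this gene differed most between genotypes in VP and DLP. The start is the one of the RefSeq promoter table, which lies inside the span given above, so that most of these bases belong to that span. The 250 bases before it, chr6:47595031-47595280 on the minus strand (GRCm38.p6), are given 5′ to 3′, with the letters CCAAT or their reverse complement ATTGG in capitals.
EZH2 upstream: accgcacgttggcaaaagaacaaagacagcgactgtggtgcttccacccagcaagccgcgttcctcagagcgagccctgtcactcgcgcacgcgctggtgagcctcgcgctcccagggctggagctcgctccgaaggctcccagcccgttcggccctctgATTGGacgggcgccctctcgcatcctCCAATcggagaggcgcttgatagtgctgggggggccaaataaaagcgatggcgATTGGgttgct
These letters occur 3 times, where 2.79% of all promoters of the table hold them 3 or more times in the same 250 bases, and were searched for after the sequence had been read. The E-box CACGTG, the classic site of MYC with MAX, and the letters TTTGGCGC and TTTCCCGC, both typical of E2F sites, were searched on both strands from 250 bases before to 50 after the start.

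Promoter entries existed for 9 of the 10 genes, and the starts used for EZH2, KDM6A, CBX7 and the further entry of JARID2 lie inside the annotated span, so that positions count from an internal start there. TTTGGCGC was found in EZH2, at position 4 of the transcribed part, and in 0.514% of all 32851 promoters, and TTTCCCGC in SUZ12, at position -219 from the start, and in 1.07% of all. CACGTG was found in BMI1 and KDM6A, at positions -215 and -27, and in 7.15% of all promoters. Windows of 30 bases around each match follow, with the match in capitals, to show which genes hold which letters.
EZH2: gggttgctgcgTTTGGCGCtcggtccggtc
SUZ12: cgacccctcatTTTCCCGCgaattcagttc
BMI1: aatgaggggagCACGTGacccggcgggggg
KDM6A: tcaacaaaggtCACGTGaggcgaggggctg
The windows lie at chr6:47595009-47595038 (minus strand), chr11:79992876-79992905, chr2:18676792-18676821 and chrX:18162537-18162566 (plus strand), in the same build. The promoters were rich in CpG, with 17 (EED) to 41 (SUZ12) CpG in 300 bases against a median of 7 over all promoters. The shares given for the letters are over all promoters and not over promoters of like CpG content. A match in letters is a description of the sequence and no measure of binding.

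EZH1 (chromosome 11, 101191115 to 101226463), the paralogue with weaker methyltransferase activity, varied least of the 10 genes, with a highest over lowest library of 1.22. From AP through DLP to VP, the WT lobes had 8.12, 9.91 and 9.95 FPKM and the MYC lobes 9.65, 8.92 and 8.24 FPKM. The genotypes overlapped. The ratio of MYC to WT was 0.829 (0.742 to 0.926) in VP, 0.901 (0.802 to 1.01) in DLP and 1.19 (1.04 to 1.35) in AP.

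The ratio of EZH2 to EZH1 FPKM compares both enzymes within a library, and no scaling of libraries can change it. It was 1.13 in WT AP, 0.601 in WT DLP and 0.534 in WT VP, against 1.01 (AP), 1.15 (DLP) and 1.42 (VP) in MYC lobes. The ratio was thus under 1 in 2 libraries, WT DLP and WT VP, and above 1 in the other 4. From WT to MYC it was 2.66 times as high in VP (exact conditional 95% interval from the estimated reads 2.24 to 3.16), 1.91 times in DLP (1.60 to 2.29) and 0.894 times in AP (0.741 to 1.08). The 3 WT lobes were themselves unlike, and the WT AP ratio lay at the level of MYC DLP. Set against SUZ12, which both enzymes need, EZH2 had ratios of FPKM of 0.803, 0.571 and 0.483 in AP, DLP and VP of the WT mouse and of 0.751, 0.782 and 0.755 in those of the MYC mouse. This ratio was also lowest in WT DLP and WT VP, but it was highest in WT AP and nearly flat over the MYC lobes.

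**Figure D2:**
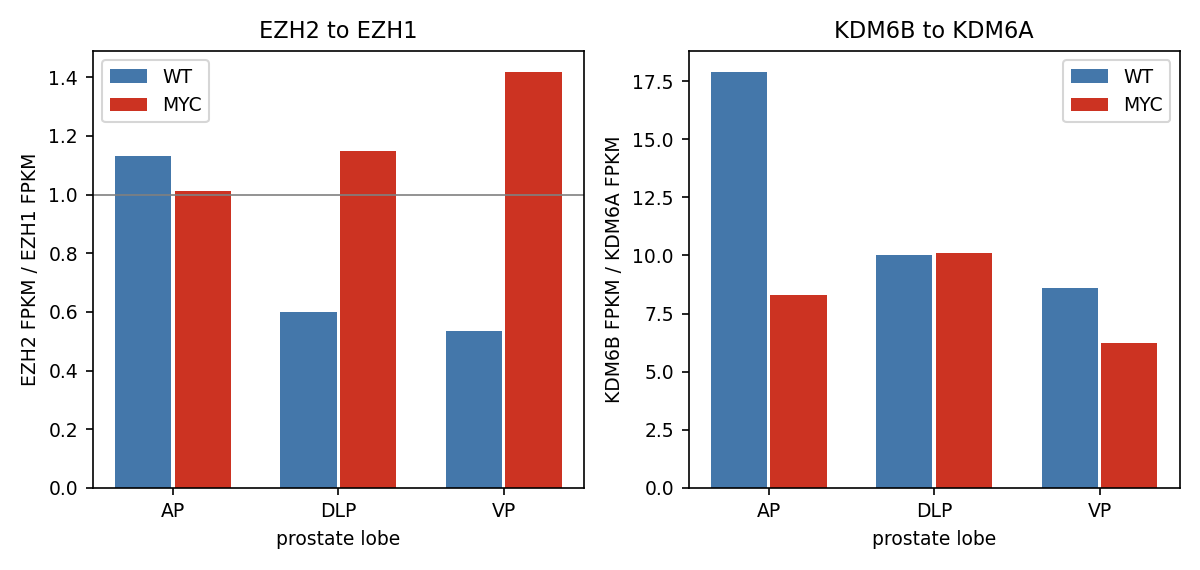
Ratio of FPKM within a library for EZH2 to EZH1 (left, grey line at 1) and KDM6B to KDM6A (right), 1 bar per library by lobe and genotype. EZH2 to EZH1 is 0.534 in WT VP and 1.42 in MYC VP, and KDM6B to KDM6A is highest in WT AP at 17.9.

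SUZ12 (chromosome 11, 79993106 to 80034123), the scaffold on which PRC2 is built, measured 11.4, 10.4 and 11.0 FPKM in AP, DLP and VP of the WT mouse. The same lobes of the MYC mouse had 13.0, 13.1 and 15.5 FPKM, each above every WT lobe. The ratio was 1.41 (1.29 to 1.54) in VP, 1.26 (1.14 to 1.39) in DLP and 1.14 (1.02 to 1.27) in AP, and the direction held in each lobe under the 5 other scalings. SUZ12, JARID2 and KDM6A were the 3 of the 10 genes whose log2 ratio lay above the median of all genes in each lobe, against 21.9% of all genes compared.

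EED (chromosome 7, 89954654 to 89980976), which binds trimethylated H3K27 and stimulates the enzyme, had WT levels of 14.2 (AP), 11.9 (DLP) and 12.5 (VP) FPKM and MYC levels of 15.3, 14.3 and 15.0 FPKM, so that WT AP and MYC DLP nearly met. The ratio was 1.21 (1.08 to 1.34) in VP, 1.19 (1.06 to 1.35) in DLP and 1.08 (0.956 to 1.22) in AP. It turned to a log2 ratio of -0.0041 in VP with equal sums without the 20 highest genes, and below 0 in AP with medians of ratios and trimmed means.

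EZH2, SUZ12 and EED had all 3 MYC libraries above all 3 WT libraries, as had 10.7% of all genes, whereas no gene of the 10 had them all below (3.06% of all). This was noticed after the values were seen, and under each of the 5 other scalings no gene of the 10 was separated in this way. The 3 lobes of a genotype come from 1 mouse and are not replicates.

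JARID2 (chromosome 13, 44730774 to 44921643) had the widest range of the 10 genes, 2.60 from lowest to highest library, where the median over 12204 genes with no value of 0 was 2.14. In order AP, DLP, VP, its level was 4.71, 5.43 and 6.95 FPKM in WT against 5.99, 7.38 and 12.2 FPKM in MYC lobes. In both genotypes AP was lowest and VP highest, and MYC VP stood apart from the other 5 libraries. The ratio was 1.76 (1.60 to 1.94) in VP, 1.36 (1.20 to 1.53) in DLP and 1.27 (1.10 to 1.47) in AP, with the direction kept under the 5 other scalings.

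**Figure D3:**
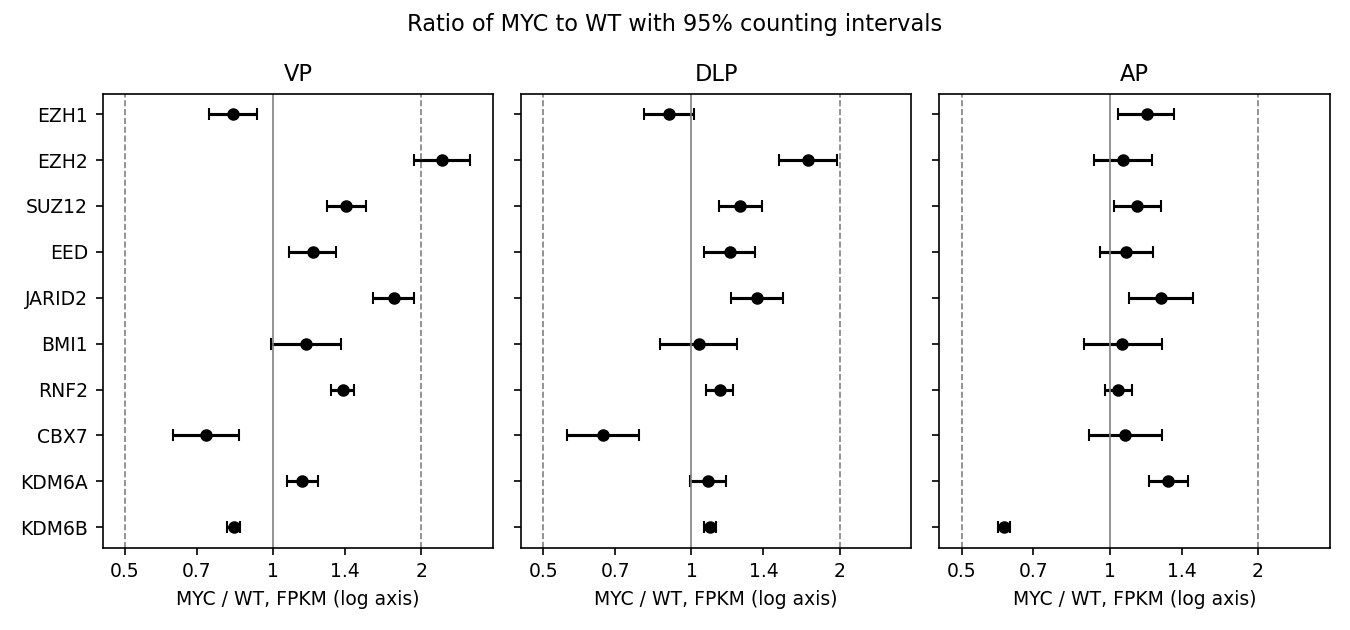
Ratio of MYC to WT FPKM (log axis) of the 10 genes in VP, DLP and AP, with exact 95% counting intervals. Dashed lines mark 2-fold. EZH2 lies at 2.20 in VP and 1.72 in DLP but at 1.06 in AP, and KDM6B at 0.609 in AP.

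Among the PRC1 genes, RNF2 (chromosome 1, 151469398 to 151500991), the ubiquitin ligase subunit, was the highest of the 8 catalytic and PCGF genes listed for PRC1. AP, DLP and VP had 19.2, 16.0 and 17.1 FPKM in the WT mouse and 20.02, 18.3 and 23.6 FPKM in the MYC mouse, with MYC VP the highest library. The ratio was 1.38 (1.31 to 1.46) in VP, 1.14 (1.07 to 1.22) in DLP and 1.04 (0.976 to 1.11) in AP, and scaling to KRT8 and KRT18 turned the DLP value to a log2 ratio of -0.041, while medians of ratios and trimmed means turned the AP value to -0.090 and -0.079. Its paralogue RING1 lay below RNF2 in FPKM in all 6 libraries, by 1.69 times in WT VP and up to 2.63 times in WT AP.

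BMI1 (chromosome 2, 18677018 to 18686629), the PCGF partner that raises the activity of RNF2, stood at 6.56 (AP), 5.63 (DLP) and 5.75 (VP) FPKM in WT lobes and at 6.94, 5.83 and 6.70 FPKM in MYC lobes. Its counting intervals included 1 in all 3 lobes, with 1.17 (0.989 to 1.37) in VP, 1.03 (0.862 to 1.24) in DLP and 1.06 (0.885 to 1.28) in AP. The genotypes overlapped, and RNF2 was 2.85 to 3.52 times as high as BMI1 per length in the 6 libraries.

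CBX7 (chromosome 15, 79915804 to 79971143) was the member with the lowest ratios in VP and DLP. The WT mouse had 6.20 (AP), 7.04 (DLP) and 6.89 (VP) FPKM, and the MYC mouse 6.65, 4.65 and 5.02 FPKM in the same order. MYC DLP and MYC VP were the lowest libraries. The level was 1.37 times (1.17 to 1.60) as high in WT as in MYC VP and 1.51 times (1.28 to 1.79) in DLP, and the AP ratio of MYC to WT was 1.07 (0.906 to 1.28). The direction in VP and DLP held under the 5 other scalings. CBX7 was also the 1 gene of the 10 below the median of all genes in each lobe (21.2% of all genes). In RefSeq its span overlaps APOBEC3, which had 3.92 to 4.95 FPKM in WT and 5.73 to 7.99 FPKM in MYC, and whether counting used strand is not stated in the sources used here.

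Of the H3K27 demethylases, KDM6B (chromosome 11, 69398508 to 69420367), a gene induced by stress and inflammatory signals, had by far the highest level per length of the 10 genes, with 6.53% of all genes compared having a higher mean, against 25.3% (RNF2) to 59.2% (CBX7) for the other 9. In RefSeq the KDM6B span overlaps the locus Gm51903. KDM6B had 110.45 FPKM in WT AP, 60.7 in WT DLP and 59.4 in WT VP. The MYC lobes had 67.3 (AP), 66.2 (DLP) and 49.4 (VP) FPKM. WT AP stood apart and the other 5 libraries lay between 49.4 and 67.3 FPKM. In AP the level was 1.64 times (1.60 to 1.69) as high in WT as in MYC, and 1.97% of all genes compared had an AP log2 ratio as low. In VP the ratio of MYC to WT was 0.831 (0.806 to 0.857) and in DLP 1.09 (1.06 to 1.12), the latter turning below 0 on the log2 scale under 2 of the 5 other scalings. The difference in AP rests on the WT AP library. That library has the fewest reads in all, with an estimated 9853 for KDM6B, against 10028 in WT DLP and 10326 in WT VP.

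Immediate early genes, known to respond to tissue dissociation, were high in every library, with sums of 7576 to 10833 FPKM over 10 genes. Their median log2 ratio was -0.51 in VP, 0.02 in DLP and 0.11 in AP. In AP, where KDM6B differed most, 7 of these 10 genes were higher and 3 lower in MYC, while 66.4% of all genes were higher there. Their part in the KDM6B values was not tested.

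KDM6A (X chromosome, 18160862 to 18279936), which acts within the KMT2C/D complexes at enhancers, was measured at 6.17, 6.07 and 6.91 FPKM in AP, DLP and VP of the WT mouse, and at 8.11, 6.56 and 7.92 FPKM in those of the MYC mouse. The ratio was 1.15 (1.07 to 1.23) in VP, 1.08 (0.994 to 1.18) in DLP and 1.32 (1.20 to 1.44) in AP, and under other scalings the VP and DLP values turned below 0 in 2 of 5 each. UTY, its Y-linked paralogue with little demethylase activity, had 5.25 to 7.40 FPKM over the 6 libraries, close to KDM6A in each, with KDM6A 1.004 to 1.25 times as high. KDM6B exceeded KDM6A per length by 17.9 times in WT AP and by 6.23 to 10.1 times in the other libraries. From WT to MYC that ratio was 2.16 times lower in AP (exact conditional interval 1.97 to 2.37), 1.38 times lower in VP (1.27 to 1.49), and 1.01 times as high in DLP (0.923 to 1.10).

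Across lobes of the WT mouse, none of the 10 genes differed 2-fold, where 8.92% of all genes did between VP and DLP, 18.2% between VP and AP and 5.16% between DLP and AP. WT AP had the highest EZH2 and KDM6B, by log2 differences of 0.69 and 0.88 over WT VP and of 0.55 and 0.85 over WT DLP. JARID2 was ordered the other way, with WT VP above WT AP by 0.48. WT VP and WT DLP lay near each other, with JARID2 the most different at 0.30 and the other 9 genes within 0.16. Over both genotypes, 7 of the 10 genes had a log2 ratio of MYC to WT above 0 in each lobe, as had 29.9% of all genes, and none had it below 0 in each (13.9%). Of those 7, SUZ12 and JARID2 kept the direction in all 3 lobes under every scaling tried.

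Outside the 10 genes, 50 further genes of the Polycomb and H3K27 lists were in the table and 48 were compared. On the log2(FPKM + 1) scale, which understates the change of low genes, none was 2-fold higher in any lobe, and 1, PHF1, was 2-fold lower in VP and DLP. Of all genes, 6.88%, 6.46% and 2.05% were 2-fold higher in VP, DLP and AP, and 5.95%, 3.39% and 0.599% lower. On FPKM alone, PCGF6 (3.51 to 8.01), EPOP (0.739 to 2.06) and PHF19 (3.01 to 1.10) also passed 2-fold in VP, and CBX2 (0.782 to 2.0005) in DLP. The share of all genes passing 2-fold on FPKM alone was not computed, so these have no background beside them. PHF1, a PRC2 accessory subunit of the Polycomb-like family that binds H3K36 methylation, fell from 40.7 to 11.3 FPKM in VP (log2 ratio -1.76) and from 35.5 to 16.1 FPKM in DLP (-1.09), and had 34.7 and 23.0 FPKM in WT and MYC AP. JARID2 and AEBP2 occur in one form of PRC2 and the Polycomb-like PHF1, MTF2 and PHF19 in the other, with differences of both signs within each. AEBP2 had log2 ratios of -0.20, -0.34 and -0.90 in VP, DLP and AP, below 0 where JARID2 was above it, and MTF2 had 0.28, 0.47 and 0.22 where PHF1 was lower. PHF19 had -0.93, -0.47 and -0.23, on the side of PHF1 in each lobe. The medians of the 48 genes were 0.02 in VP, 0.05 in DLP and 0.15 in AP, with 26, 27 and 33 genes above 0. Of all genes compared, 53.2%, 53.5% and 66.4% were above 0 in these lobes.

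**Figure D4:**
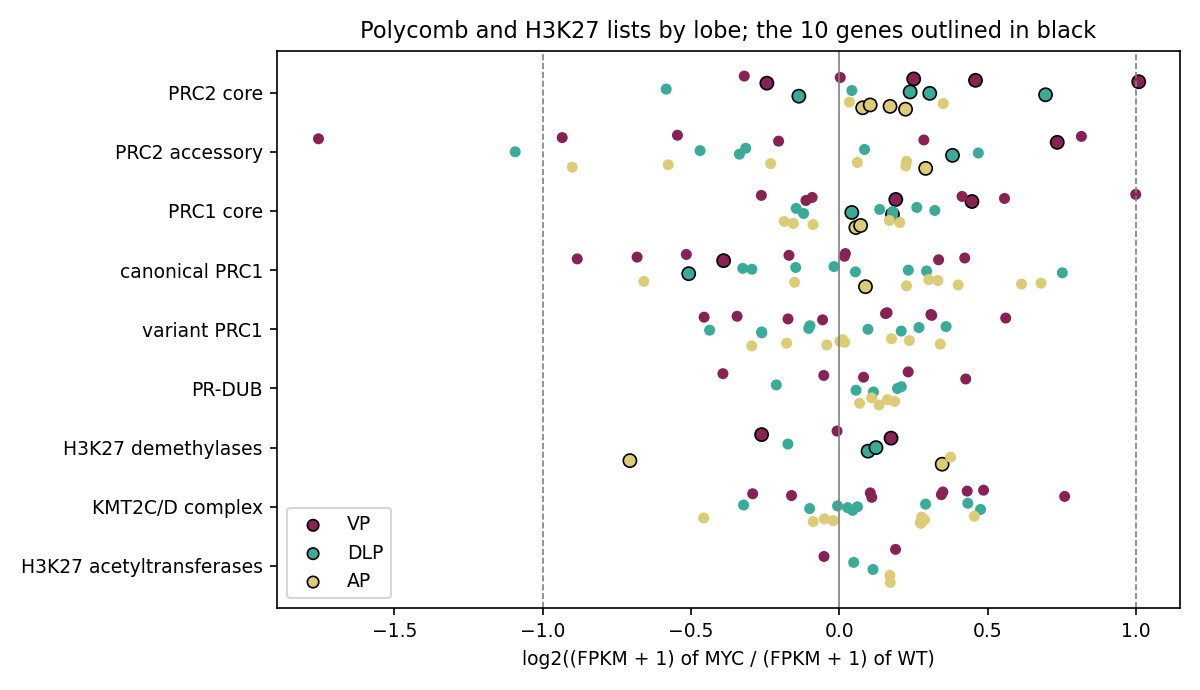
Log2 ratio of MYC to WT of each gene of the 9 Polycomb and H3K27 lists, 1 point per gene and lobe, with the 10 genes outlined in black and dashed lines at 2-fold. Most points lie between the dashed lines, EZH2 in VP lies just past the right line, PCGF6 in VP just under it at 0.999, and PHF1 lies left of the other in VP and DLP.

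The 6 PRC2 core genes had medians of 0.13, 0.14 and 0.14 in VP, DLP and AP. Among them the histone-binding subunit RBBP7 had the highest mean level of all these genes, 97.3 to 123 FPKM in WT and 80.8 to 99.6 FPKM in MYC, and was lower in MYC DLP with a log2 ratio of -0.58. Of the PRC2 accessory genes AEBP2 was highest, with 75.3 (AP), 55.8 (DLP) and 25.2 (VP) FPKM in WT lobes and 39.9, 44.0 and 21.7 FPKM in MYC lobes. In both genotypes its level was lowest in VP, where JARID2 was highest. The 7 accessory genes compared, with PHF1, had a median of -0.20 in VP, -0.32 in DLP and 0.06 in AP.

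In PRC1, the 8 core genes had medians of 0.30, 0.16 and 0.06 in VP, DLP and AP, with no gene past 2-fold, the 9 canonical PRC1 genes -0.17, -0.02 and 0.30, and the 9 variant PRC1 genes 0.16, -0.10 and 0.01. The highest of each list were RNF2, the polyhomeotic gene PHC2, with 25.3 to 51.7 FPKM in WT and 22.3 to 39.6 FPKM in MYC, and FBRS, with 20.5 to 25.6 and 23.0 to 27.4 FPKM. The 5 genes compared of PR-DUB, the complex that removes the PRC1 mark, had medians of 0.08, 0.11 and 0.13, with BAP1, its deubiquitinase, highest at 10.3 to 12.5 FPKM in WT and 12.4 to 14.2 FPKM in MYC.

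On the side that opposes Polycomb, the 3 H3K27 demethylases had medians of -0.01, 0.10 and 0.35, and the 9 genes of the KMT2C/D complex 0.34, 0.04 and 0.27. DPY30, a small subunit shared by these methyltransferase complexes, was highest there and had log2 ratios of 0.49, 0.43 and 0.45 in VP, DLP and AP. The H3K27 acetyltransferases CREBBP and EP300 had medians of 0.07, 0.08 and 0.17, and CREBBP had 9.15 to 10.9 FPKM in WT and 10.6 to 12.4 FPKM in MYC.

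Genes that the literature describes as repressed by EZH2 in prostate cancer went in no common direction, with medians of 0.20 in VP, 0.50 in DLP and 0.06 in AP. Of the 6 listed, 4 were compared, with 1 at least 2-fold higher in VP (CDKN2B), and none 2-fold lower in any lobe. CDKN2B, an inhibitor of CDK4 and CDK6, had a log2 ratio of 1.01 in VP and 5.04 FPKM in MYC VP. CDH1, which encodes E-cadherin, had 330 and 221 FPKM in WT and MYC VP and 498 and 307 FPKM in WT and MYC AP. DAB2IP had 10.3 and 8.62 FPKM in WT and MYC VP. CDKN2A, a classic Polycomb target that was under the minimum level, had 0.178 FPKM in WT VP against 3.62 in MYC VP. It is listed at 0 in WT DLP and had 1.58 FPKM in MYC DLP. In AP, where the EZH2 ratio was 1.06, CDKN2A had 0.0608 FPKM in WT and 0.331 in MYC.

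Proliferation genes were higher in VP and DLP, where EZH2 was higher, and to a lesser extent in AP. Of 18 proliferation genes compared, 15 were at least 2-fold higher in VP, 14 in DLP and 3 in AP, with medians of 2.13, 2.09 and 0.82. The shares of all genes at least 2-fold higher were 6.88%, 6.46% and 2.05%. In AP, where the EZH2 ratio was 1.06, 15 of 18 were above 0, as were 66.4% of all genes. MKI67, a marker of dividing cells, had 0.484 FPKM in WT VP against 12.8 in MYC VP, and 0.693 in WT AP against 3.60 in MYC AP. Over the 20 listed genes the sum was 106 FPKM in WT AP, the WT lobe with the highest EZH2, against 85.9 in WT DLP and 53.1 in WT VP, an order carried by PCNA, RRM2 and MCM4. BIRC5, MCM6, MCM5, TPX2, CCNA2 and CCNB1 were also highest in WT AP, at 2.44 FPKM or less. MKI67 (0.721 FPKM), MCM3, MCM7 and BUB1 were highest in WT DLP. TOP2A, CDK1, AURKB, TYMS, CENPF, MCM2 and E2F1 were highest in WT VP, and MCM2 and E2F1 were lowest in WT AP.

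The cell make-up of the libraries also differed. Hematopoietic markers, 6 genes, summed to 27.5 and 162 FPKM in WT and MYC VP, 37.9 and 221 in DLP and 99.2 and 88.9 in AP. Of the 5 compared, 4 were 2-fold higher in VP, 5 in DLP and none in AP, with medians of 1.16, 1.65 and 0.0071. Smooth muscle markers, 6 genes, summed to 358 and 220 FPKM in WT and MYC VP, 419 and 245 in DLP and 233 and 373 in AP. All 6 were lower in MYC VP and MYC DLP and higher in MYC AP. The ratios of EZH1 lay on the same sides of 1, but its counting interval in DLP (0.802 to 1.01) included 1. The ratios of CBX7 also lay on these sides as deposited, with 1.07 in AP, where the counting interval (0.906 to 1.28) included 1. Medians of ratios and trimmed means turned its AP log2 ratio to -0.044 and -0.034. Fibroblast markers, 6 genes, summed to 648 and 195 FPKM in VP, 1284 and 698 in DLP and 1201 and 1365 in AP, a sum in which DCN is the largest term. Their median log2 ratio was -1.09, 0.36 and 0.94, and in DLP 2 collagen genes were 2-fold higher (COL1A1 and COL3A1) while DCN and PDGFRA were 2-fold lower. Basal markers, 4 genes, summed to 407 and 278 FPKM in VP, 918 and 1286 in DLP and 1337 and 859 in AP, where KRT14 went from 760.5 to 333 FPKM, TRP63 from 5.79 to 19.2, and the list median was -0.11. Luminal markers, 7 genes, had medians of -0.29, -0.72 and -0.22, endothelial markers, 4 genes, -0.03, 0.01 and 0.07, and FABP4 of the adipocyte pair 0.29, 0.02 and 0.40, while ADIPOQ was at 0 in 5 libraries. The part of proliferation and of these cells in the Polycomb values was not tested, and in bulk RNA fewer cells of a type and less RNA per cell cannot be told apart.

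The genes whose log2(FPKM + 1) followed a member most closely over the 6 libraries were taken from 8054 genes whose mean was 5 FPKM or more. For EZH2 they were CHD4 (r = 0.98), IL13RA1 (0.97) and AK6 (0.97), and CHD4, the ATPase of the NuRD complex, ran from 32.1 FPKM (WT VP) to 51.8 FPKM (MYC VP). For EZH1 they were MARCH8 (0.997), TAGLN (0.98) and ITCH (0.97), of which TAGLN is a smooth muscle gene with 98.1 to 167 FPKM. For KDM6B they were TFRC (0.99), MAP7D1 (0.97) and ARID5B (0.97). These are Pearson correlations over 6 libraries of unequal depth, from the same lobes of 2 mice, and they are given as a description.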

How the data were processed

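Bulk RNA-seq of 6 prostate libraries was used. The authors mapped reads with STAR and quantified genes with Cufflinks (mm10 per the processing notes), and deposited 1 table of FPKM. The methods call these read counts, but the values are not whole, so no count model was run. Members and gene lists were chosen with earlier results of these data known. Reads per gene were estimated from FPKM, the mean GENCODE M1 transcript length less 200 bases and a depth recovered from single-exon genes longer than 600 bases at under 0.3 FPKM. Positions and promoters are RefSeq, GRCm38.p6, matched by symbol. Of 137 list symbols 136 were in the table. Other Polycomb genes were named when past 2-fold in VP or DLP, or as the highest of their list. PCGF6, EPOP, CBX2, MTF2, PHF19, CDKN2A and other list genes outside this rule were named after their values were seen. The calls, intervals and depth estimate were tested on simulated data. Software was scipy 1.17.1, matplotlib 3.10.9, pandas 2.3.3 and numpy 2.4.6 on Python 3.11.15. Alternatives were 5 scalings, pseudocounts of 0.1 and 0, a 1.5-fold threshold and minimum means of 0 and 10 FPKM. Values of 2 list genes are not reported here.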

Additional observations from a re-analysis of the deposited data

Results flagged for a closer look

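In 2 of the 10 genes, MYC and WT differed in opposite directions in a pair of lobes while both counting intervals lay off a ratio of 1. The log2 ratio of EZH1 was higher in AP than in VP by 0.47 (0.22 against -0.24). That of KDM6B was higher in DLP than in VP by 0.39 (0.12 against -0.26), and the difference of AP less DLP was -0.83 (-0.71 against 0.12). With 1 library per lobe and genotype these differences were not tested, and the positive DLP value of KDM6B turned below 0 under 2 of 5 other scalings.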

How the results depend on the processing

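The count of the 10 genes past 2-fold in VP was 0 instead of 1 with medians of ratios, equal sums, equal sums without the 20 highest genes and trimmed means, and 2 at 1.5-fold. It was also 0 with a minimum mean of 10 FPKM, a filter that leaves EZH2 out by its mean of 8.69 FPKM. At 1.5-fold it was 1 in DLP and 1 in AP. The median log2 ratio in VP (0.22) became 0.0088 with equal sums, -0.025 without the 20 highest genes, 0.42 with scaling to KRT8 and KRT18 and 0.35 when means under 10 FPKM were left out. In DLP (0.15) it became -0.0098 without the 20 highest genes and -0.074 with KRT8 and KRT18. In AP (0.10) it became -0.042 with medians of ratios, -0.031 with trimmed means and 0.27 with KRT8 and KRT18. Among WT lobes, the genes past 2-fold were 1 with equal sums, 10 with KRT8 and KRT18, which differ between lobes, and 2 at 1.5-fold. The 3 genes with all MYC above all WT libraries became 0 under each of the 5 scalings, an alternative added after seeing the data. The cause of the other shifts was not tested. With equal sums the median over all genes in VP was -0.15, against 0.04 as deposited. Of 30 member and lobe pairs, 18 kept their sign under all 5 scalings. The EZH2 to EZH1 ratio does not depend on scaling. No paired analysis was possible because each genotype is 1 mouse, whose lobes are not replicates.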
